A study of Drosophila melanogaster with 24 samples.

Results

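The genes described here are those of the cytosolic ribosome of Drosophila melanogaster and their paralogues. They were chosen by name from the authors' deposited table: every symbol that begins with RpL or RpS followed by a digit or by P, and sta, the gene of ribosomal protein SA. This gave 89 of the 13234 genes in the table, 52 of the large subunit and 37 of the small subunit. Of these, 70 have plain symbols and are called main copies, 16 carry a final lower-case a or b and 3 end in -like. The lettered and -like genes, 19 in all, are called paralogues. The annotation used here holds 4 further genes of this naming pattern, RpL10Aa, RpL7-like, RpS28a and RpS28-like, which are not analysed here.

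A ribosome is built from a large and a small subunit, and each ribosomal protein is needed in 1 copy in nearly every ribosome, the acidic stalk proteins being the known exception. The messenger RNAs of these proteins are short and abundant, and in animals they begin with a pyrimidine tract, the TOP sequence, through which their translation follows TOR signalling. In flies, loss of 1 of the 2 copies of many of these genes gives the Minute phenotype of slow growth and thin bristles. Fat body is the insect counterpart of liver and adipose tissue, and its output of secreted proteins, yolk included, changes with nutrition and reproduction.

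Messenger RNA was sequenced from dissected fat body of w1118 virgin adult females in 24 libraries, 6 in each of 4 groups. Flies were reared at 25 °C and then held at 11 °C with ethanol, at 11 °C with S-methoprene, at 25 °C with ethanol or at 25 °C with S-methoprene. The age recorded for every library was 25 days. S-methoprene mimics juvenile hormone, and it or its vehicle, 99% ethanol, was given as a vapour from 10 µL every 2 days. Each library pooled tissue of 25 flies, and only flies whose ovaries matched the condition were used: regressed in the cold with ethanol, large otherwise. The question is what changes in adult diapause, a reproductive arrest in the cold, and what the hormone mimic reverses.

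The authors' deposited table gives 1 comparison, with no value per library, and names neither the factor compared nor its direction. A gene is therefore called higher on the negative side (log2 fold change below 0) or on the positive side, and no side is assigned to a temperature or a treatment. Each gene has a mean normalised read count over libraries, a log2 fold change with its standard error (SE), and an adjusted p-value, and a gene is called where that p is under 0.05. The 95% intervals given here are the fold change plus or minus 1.96 SE. The depth of single libraries is unknown. Nothing in the labels says that the libraries of a group came from separate cultures, so the p-values measure the spread between these libraries, which may in part be technical. In dissected tissue, fewer cells of a type and less RNA per cell cannot be told apart.

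The fat body label was checked against 12 marker genes, of which 11 had a row. Yp1, Yp2, Yp3, apolpp, Desat1 and FASN1 had means between 18112 and 53598 in the authors' deposited table, and Fbp1, a gene of larval fat body, was the lowest at 3.38. Markers of germline (13 of 13 measured, summed mean 2384), follicle cells (9 of 9, 2179), muscle (8 of 8, 4216), neurons (6 of 6, 473) and hemocytes (6 of 6, 2094) were present at lower sums than those of fat body (201999) and oenocytes (3 of 3, 145369). The lists differ in size, so their sums do not rank fat body against oenocytes. The oenocyte marker Cyp4g1 had the highest mean of all genes with a p-value, 123338. Fat body markers were called 6 negative and 1 positive, germline markers 5 and 0, follicle markers (6 with an adjusted p-value) 5 and 0, oenocyte markers 3 and 0, muscle markers 0 and 5, neuron markers 0 and 5 and hemocyte markers 0 and 3. The part of these cells in the results below was not tested.

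All 70 main copies were called, and all 70 were higher on the negative side. Over all 89 genes, 84 were called on the negative side, 1 on the positive side, 2 were not called and 2 had no adjusted p-value. Over the whole deposited table an adjusted p-value was given for 11399 genes, and 49.0% of these were called, 22.0% as negative and 27.0% as positive. A negative call with at least a 2-fold difference was met by 11 of the 89 genes and by 5.93% of all genes. The median log2 fold change of the main copies was -0.78, a 1.72-fold higher level on the negative side, with quartiles at -0.87 and -0.68. Over all genes with a p-value the median was 0.04. Weighted by mean count, the fold change of the 89 genes was -0.80, against -0.24 over all genes. Together the 89 genes held 10.3% of all normalised counts, and 30 of them were among the 100 genes with the highest mean.

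**Figure D1:**
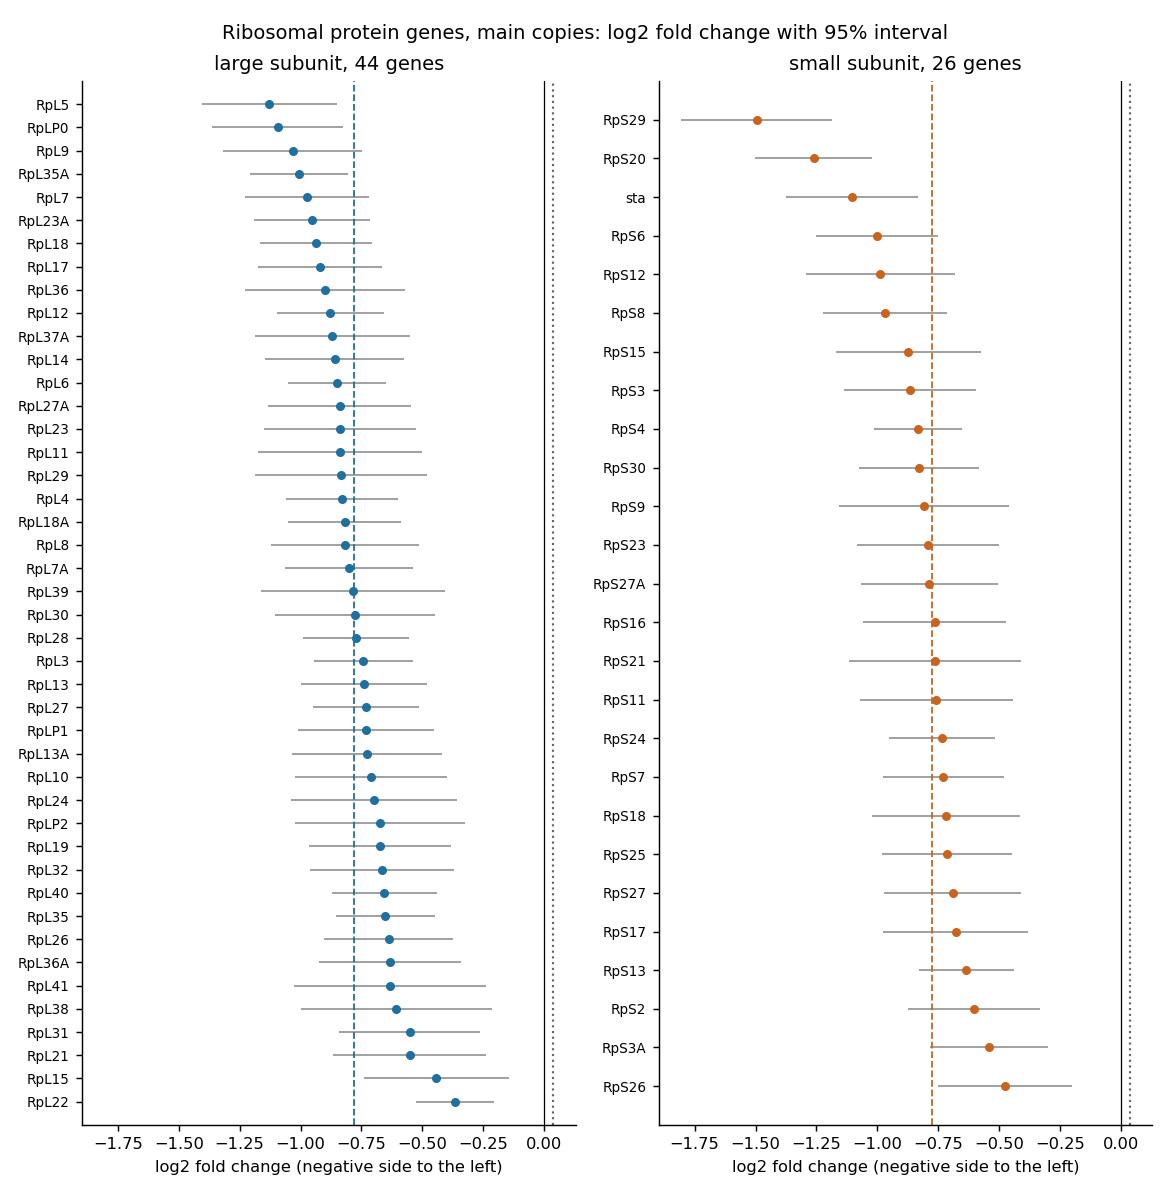
Log2 fold change of each main copy in the authors' deposited table (points) with its 95% interval (bars), large subunit on the left and small subunit on the right, each ordered by value. The dashed lines mark the subunit medians of -0.78 and -0.78, the solid line 0 and the dotted line the median of all genes, 0.04; no interval reaches 0.

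Fold change went with transcript length across genes. Among the 70 main copies, which span 288 to 1512 bases, Spearman rho was -0.15 for spliced length, without a test. So narrow a range limits what this value can show about length. Among 5228 genes with a mean of at least 100 and a known spliced length, fold change rose with length across genes (Spearman rho 0.375, genes are not independent replicates), while rho was -0.06 for mean count. The main copies are short, with a median spliced length of 684 bases. In the range of length and mean that they span there were 1351 other genes with an adjusted p-value, of which 42.0% were called negative and 16.3% positive, with a median of -0.22. This set shares the outer limits only. Its median length was 1070 bases and its median mean 352, against 684 and 5787 for main copies. In the band over 500 and up to 1000 bases, 51 main copies had a median of -0.76 and 609 other genes with a mean of at least 100 had a median of -0.27. In the next band, up to 1500 bases, the medians were -0.83 for 13 main copies and -0.17 for 846 other genes. After a spline fit of fold change on length and mean over all genes, the median of the 89 genes was -0.34 and 45 were called on the negative side, where 22.6% of all genes were after the same fit. The parts of length and of mean in this change were not separated. RpL28 (653 bases, mean 1834) went from -0.77 to -0.45, and RpL26 (652 bases, mean 8649) from -0.64 to -0.03. With the ribosomal protein genes themselves kept out of the fit, the median was -0.39 and 53 were called, against 22.8% of all genes. Of the 70 main copies 34 and 41 were called. These 2 adjusted counts were added after the data were seen.

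**Figure D2:**
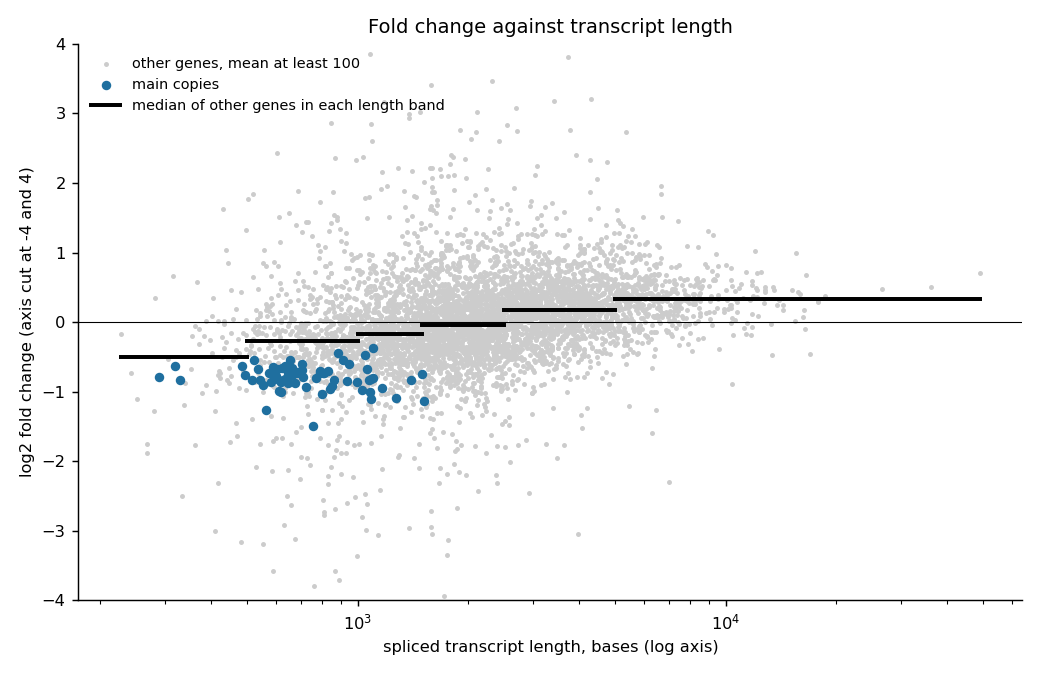
Log2 fold change in the authors' deposited table against spliced transcript length on a log axis, for genes with a mean of at least 100. Grey points are other genes (19 of them lie beyond the axis), blue points the main copies and black bars the median of the other genes in each length band, which goes from -0.51 in the shortest to 0.33 in the longest.

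All main copies of both subunits were called on the negative side. The 44 main copies of the large subunit had a median of -0.78 (range -1.13 to -0.37) and the 26 of the small subunit a median of -0.78 (range -1.50 to -0.48). The difference of the medians, large minus small, was -0.0064, and it was not tested. The SD of the fold changes over main copies was 0.16 in the large subunit, where the median SE of a gene was 0.15, and 0.22 in the small subunit, where it was 0.14. For 61 of the 70 the 95% interval held the common median of -0.78. The interval lay wholly below it for 6 and wholly above it for 3. The genes share libraries and their covariance is unknown, so these SEs and intervals do not measure the scatter expected between genes.

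The genes furthest towards the negative side were RpS29 and RpS20, both of the head of the small subunit. RpS29 (FBgn0261599, 3R:9778042-9779528, release 6 of the genome) had a mean of 2160 and, in the authors' deposited table, stood at -1.50 (SE 0.16, adjusted p = 1.21e-19), a 2.82-fold difference. RpS20 (FBgn0019936, 3R:20822181-20823356) had a mean of 660 and stood at -1.26 (SE 0.12, adjusted p = 6.06e-23) in that deposited table, a 2.40-fold difference. The other 4 whose interval lay below the common median were RpL5, sta, RpLP0 and RpL35A. Both RpS20 and RpS29 hold snoRNA genes and touch a gene on the opposite strand, which for RpS20 is CG17272 over 44 bases and for RpS29 a non-coding antisense gene over 10 bases. The strand setting, which the labels and notes do not state, bears on how such reads were counted.

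The genes least shifted were RpL22, RpL15 and RpS26, and these 3 had intervals wholly above the common median. RpL22 (FBgn0015288, X:762560-765130), a protein near the exit of the peptide tunnel, stood at -0.37 with the smallest SE of all members (0.08, adjusted p = 3.52e-05) in the authors' deposited table, a 1.29-fold difference. The deposited table put RpL15, which lies deep in the ribosomal RNA of the large subunit, at -0.44 (SE 0.15, adjusted p = 0.00945) and RpS26, which lines the mRNA exit channel, at -0.48 (SE 0.14, adjusted p = 0.0021). RpS3A, the 1 main copy on chromosome 4, followed at -0.54 (SE 0.12) in the deposited table. After the length and mean fit RpL22, RpL15 and RpS26 were the 3 that changed sign whether or not ribosomal protein genes were in the fit, at 0.0925, 0.0753 and 0.0867 with them in it and at 0.0243, 0.0036 and 0.0040 without. None of these 3 was called after either fit.

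By role, the stalk recruits elongation factors to the large subunit, and its 3 genes were called on the negative side. After the length and mean fit RpLP0 still was, where 22.6% of all genes had a negative call. RpLP0, its base, had the highest mean of all 89 genes (14542) and stood at -1.09 (SE 0.14), while RpLP1 stood at -0.73 (SE 0.14) and RpLP2 at -0.67 (SE 0.18) in the authors' deposited table. RpL5 and RpL11, which enter the ribosome together with 5S RNA, stood at -1.13 (SE 0.14) and -0.84 (SE 0.17) in that deposited table. Among genes with the highest means after RpLP0 were RpL4 at 14272, sta at 13899 and RpL23A at 13534 in the authors' deposited table. Levels per length had another order: RpLP2 led with 18122 normalised counts per kb, against a median of 7449 for main copies and 439 for RpL39, the lowest. RpL39 is also the shortest main copy, at 288 bases, and how far length bears on these levels was not tested.

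Of 5 genes whose proteins sit where the mRNA enters or are marked with ubiquitin when ribosomes collide, as known from human cells and yeast, 4 were called on the negative side and RpS10a, at 1.36 in the deposited table, was not called. After the fit 2 of the 5 were called on the negative side, RpS20 and RpS10b, beside 22.6% of all genes. RpS20 at -1.26 was the lowest, RpS10b stood at -0.93 (SE 0.14), RpS3 at -0.86 (SE 0.14) and RpS2 at -0.60 (SE 0.14), all in the authors' deposited table. Of the decoding and exit region, RpS15 stood at -0.87 (SE 0.15) and RpS23, which reaches the decoding site, at -0.79 (SE 0.15) in the deposited table. The 8 genes around the tunnel exit, RpL17, RpL19, RpL22, RpL23A, RpL26, RpL31, RpL35 and RpL39, had a median of -0.66 and ran from RpL23A at -0.95 (SE 0.12) to RpL22 in the authors' deposited table. All 8 were called on the negative side. After the length and mean fit 2 were (RpL17 and RpL23A), with a median of -0.16, near the 22.6% of all genes. With ribosomal protein genes kept out of the fit 3 were, beside 22.8% of all genes. The proteins of RpL10, RpL24 and RpL40 join the large subunit late, in the cytoplasm, as known from yeast, and their genes lay close together in the deposited table, at -0.71 (SE 0.16), -0.70 (SE 0.17) and -0.66 (SE 0.11). After the fit none of these 3 was called.

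RpL40 and RpS27A are made as fusions to ubiquitin, and RpS27A stood at -0.79 (SE 0.14) in the authors' deposited table, so both fusion genes had a negative call, which 0 kept after the fit. RpS6, the ribosomal protein that S6 kinase phosphorylates under TOR, had a mean of 9962 and in the authors' deposited table its fold change had an interval from -1.25 to -0.75 (adjusted p = 1.25e-13). RpS12, through which flies sense the loss of other ribosomal proteins, stood at -0.99 (SE 0.16, adjusted p = 2.85e-09) in the deposited table. The gene sta (FBgn0003517, X:1481797-1483413), whose protein is the homologue of the vertebrate laminin receptor precursor, stood at -1.10 (SE 0.14, adjusted p = 3.1e-14) in the authors' deposited table. The remaining main copies not named here lay between -1.03 (RpL9) and -0.55 (RpL21).

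**Figure D3:**
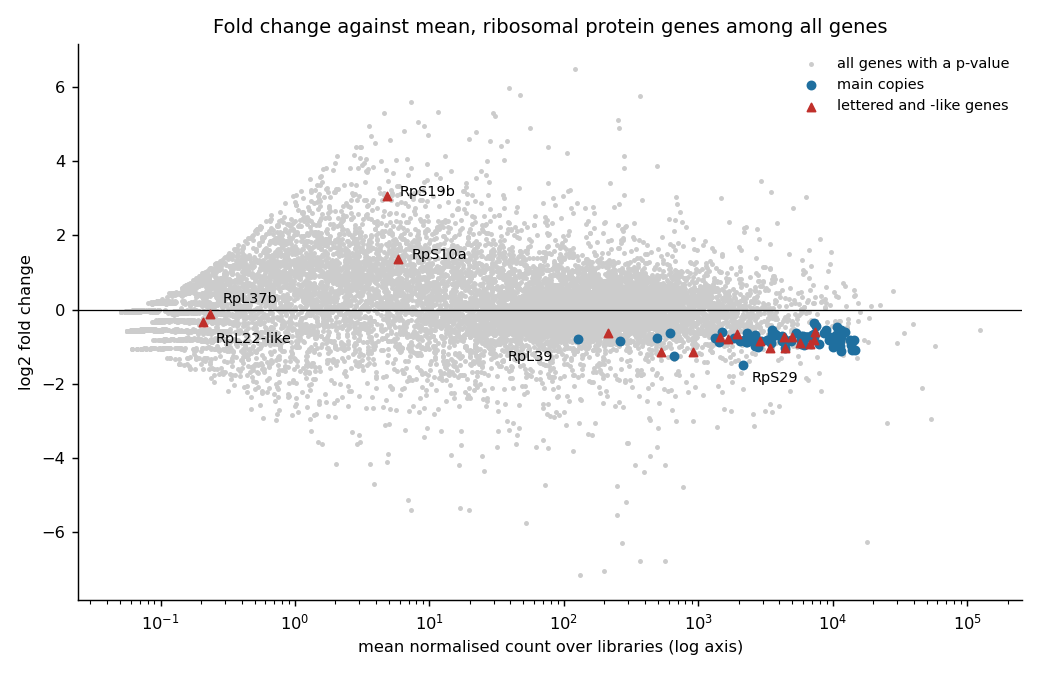
Log2 fold change against mean normalised count on a log axis, both from the authors' deposited table, for all genes with a p-value (grey), main copies (blue circles) and paralogues (red triangles). The main copies form a narrow band between means of 126 and 14542, and the 4 paralogues with a mean under 10 lie apart from it.

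The paralogues fell into 2 sets by level. Of the 19, 15 had a mean of at least 10, with a median fold change of -0.82, and 14 of these were called on the negative side. The other 4, with means between 0.21 and 5.87, gave 1 positive call and no negative one, and 2 of them had no adjusted p-value. For all 19 the median was -0.75, so that main copies minus paralogues was -0.03. The 19 were set by name and hold both copies of each lettered pair, the more abundant copy included. There were 10 families with 2 measured copies. The copy with the higher mean was called on the negative side in all 10, and both copies were in 5. Without values per library the covariance of 2 genes is unknown, so the difference of 2 fold changes is given with an interval under independent errors, and again with the summed SEs, the widest that any correlation allows. Under independent errors the interval left out 0 in 3 of 10 pairs, and with summed SEs in 2.

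RpS19 showed the widest gap. RpS19a (FBgn0010412, X:16637894-16639249) had 8370 normalised counts per kb and RpS19b (FBgn0039129, 3R:23932729-23933530), a copy known from germ cells, had 7.23. RpS19a stood at -0.89 (SE 0.14, adjusted p = 1.88e-09) and RpS19b at 3.05 (SE 0.58, adjusted p = 9.1e-07) in the authors' deposited table. The difference, b minus a, was 3.93, with an interval of 2.77 to 5.10 and with summed SEs of 2.53 to 5.34. RpS19b was the single gene called on the positive side, and with a filter at a mean of 10 it drops out and 0 positive calls are left, because its mean was 4.79. Among germline markers in the deposited table osk stood at -1.70 (SE 0.66), vas at -1.78 (SE 0.65) and exu at -1.47 (SE 0.40). The list of 13 had a median of -0.89, with means from 7.83 to 1098, and the table gives no level per group. RpS19b lay on the side opposite to all 5 called germline markers. Of 8 testis markers 6 had a row, 5 with a mean under 10, and 1, mia, was called, on the positive side, with a mean of 50.1. The part of germline RNA in the value of RpS19b was not tested.

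RpS10 had the same arrangement, with 8677 normalised counts per kb for RpS10b on X and 9.72 for RpS10a on 3R. RpS10a, a gene with 1 exon in the annotation, stood at 1.36 (SE 0.62, adjusted p = 0.0537) in the authors' deposited table and was not called. Its fold change minus that of RpS10b was 2.29, with an interval of 1.05 to 3.53, or 0.81 to 3.77 with summed SEs. RpL22-like, a paralogue known from testis, and RpL37b had means of 0.21 and 0.23, no adjusted p-value and SEs of 2.19 and 1.81 in the deposited table. Their differences from RpL22 and RpL37a could lie anywhere from -4.27 to 4.33 and from -2.66 to 4.47. RpL37a itself was called, at -1.03 (SE 0.12, adjusted p = 5.07e-17) in the authors' deposited table.

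In the RpS14, RpS15A and RpL34 families both copies were well expressed and both were called on the negative side. RpS14a and RpS14b lie next to each other on X (7933742-7934677 and 7934898-7935792), have coding sequences of the same length, 453 bases, and stood at -1.03 (SE 0.15) and -0.75 (SE 0.16) in the authors' deposited table. Their difference, b minus a, was 0.28 (-0.14 to 0.70). RpS15Aa and RpS15Ab, both with 390 coding bases, stood at -0.82 (SE 0.15) and -0.66 (SE 0.15) in that deposited table, and their difference was 0.16 (-0.25 to 0.56). RpL34a stood at -1.15 (SE 0.13) and RpL34b, the more abundant copy at 7187 against 1501 normalised counts per kb, at -0.74 (SE 0.16) as read from the authors' deposited table. The difference, a minus b, was -0.41, and its interval just reached 0 (-0.81 to 0.0004). Reads shared between such similar copies may have been split in a way that the sources used here do not give, so single copies of these families are uncertain. RpL10Ab at -0.61 (SE 0.14) and RpS28b at -0.86 (SE 0.13) were called on the negative side in the deposited table, each without a measured partner.

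Both well-expressed -like genes are relatives of pre-ribosome assembly factors rather than of parts of the finished ribosome, as known from yeast. RpL24-like, related to yeast Rlp24, stood at -0.79 (SE 0.19, adjusted p = 0.000116) in the authors' deposited table, and differed from RpL24 by -0.09 (-0.59 to 0.41). RpLP0-like, related to yeast Mrt4, stood at -0.63 (SE 0.12, adjusted p = 1.85e-06) in the deposited table, less far to the negative side than RpLP0. That difference was 0.47 (0.11 to 0.83), but -0.04 to 0.97 with summed SEs.

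**Figure D4:**
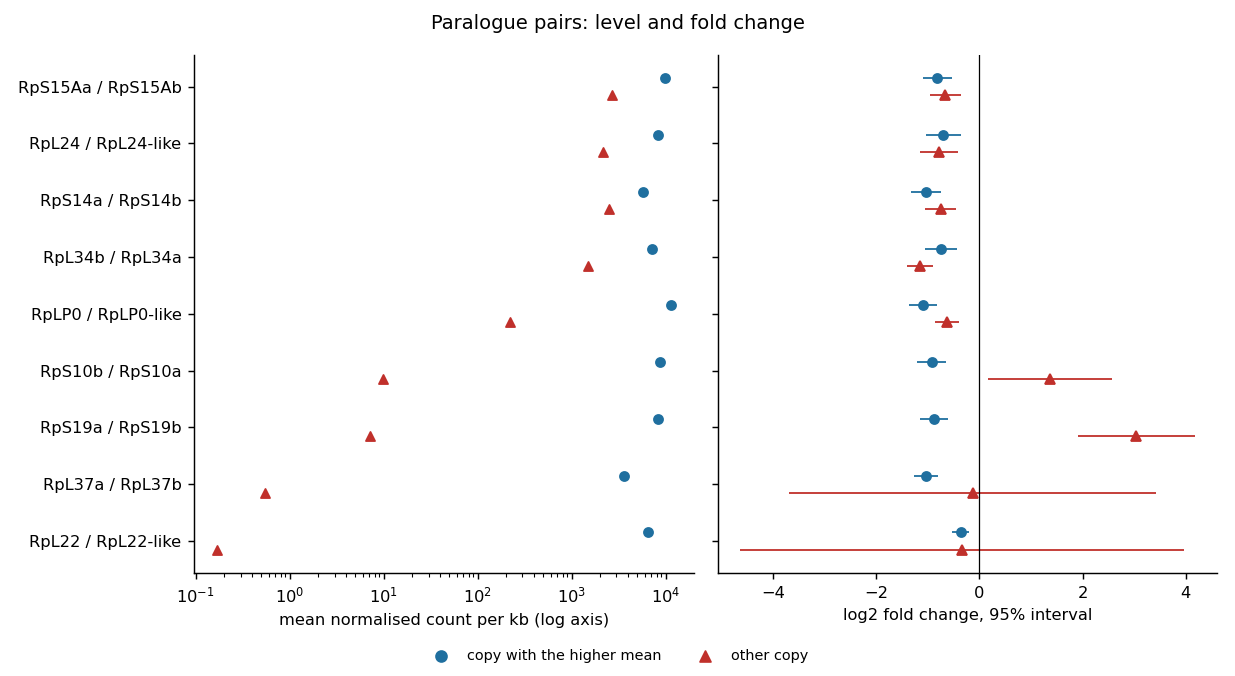
Level per length on a log axis (left) and log2 fold change with 95% interval (right) for 9 families with 2 measured copies, computed from the authors' deposited table, ordered by the mean of the less abundant copy. Blue circles are the copy with the higher mean and red triangles the other; RpS19b at 3.05 and RpS10a at 1.36 lie to the right of 0, away from their partners.

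Annotated features that were not used to choose the genes were set beside the fold change of the main copies. The 27 main copies with snoRNA genes inside them had a median of -0.83 and the 43 without had -0.73. The 24 with a Minute locus among their synonyms had a median of -0.74 and the 46 without had -0.79. The 23 with an exon that overlaps an exon of another gene had a median of -0.83 and the other 47 had -0.74. By chromosome the medians ran from -0.90 for 7 genes on X to -0.74 for 17 on 2L, with the 1 gene on chromosome 4, RpS3A, at -0.54. Across the 70 main copies the Spearman correlation with fold change was 0.05 for mean count, -0.15 for spliced length, -0.24 for coding length and -0.19 for the length of the 5′ untranslated region. These are descriptions over genes that share libraries, and no test was made.

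Mitochondrial ribosomal protein genes, which have similar spliced lengths (median 740 bases), had a median nearer to 0. Of 72, 31 had a negative call and 1 a positive call, with a median of -0.29, beside the 42.0% and 16.3% of other genes in the range of length and mean above. Their means were lower, with a median of 138 and a minimum of 1.77, against 5787 and 126 for main copies. Not all of them lie in that range. After the length and mean fit 15 had a negative call, 2 a positive one, and the median was -0.08. Among 12 genes of translation elongation and other TOP messages, 10 had a negative and 0 a positive call, beside 22.0% and 27.0% of all genes, with a median of -0.71. After the fit 5 had a negative and 1 a positive call, with a median of -0.27, where 22.6% of all genes had a negative call. The authors' deposited table gave eEF1gamma -1.31 (SE 0.10), eEF1alpha1, the factor that brings aminoacyl-tRNA to the ribosome, -0.99 (SE 0.08), eEF1beta -1.45 (SE 0.13) and Tctp -1.22 (SE 0.17). Rack1, which sits on the small subunit, stood at -0.79 (SE 0.11), while eEF1delta stood at 0.06 (SE 0.10) and eEF1alpha2 at -0.48 (SE 0.31) without a call in the deposited table.

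The factors that act on ribosomal protein genes and the TOR pathway had calls on both sides. Of 14, 4 had a negative and 4 a positive call, beside 22.0% and 27.0% of all genes, with a median of -0.13. After the fit these counts were 7 and 3, with a median of -0.19, where 22.6% of all genes had a negative call. Trf2, a factor in the transcription of ribosomal protein genes in flies, stood at 0.80 (SE 0.08) and M1BP, which binds many of their promoters, at -0.38 (SE 0.08) as read from the authors' deposited table. The TOR inhibitor Sesn was at 1.24 (SE 0.09) and larp, homologue of the TOP-binding protein LARP1 of mammals, at 0.42 (SE 0.11) in the deposited table. S6k at 0.30 (SE 0.08) also had a positive call in the deposited table. Negative calls went to Myc at -0.66 (SE 0.19), gig at -0.44 (SE 0.13) and Rheb at -0.38 (SE 0.11) there. Dref, Max, Tor, raptor, Thor and Tsc1 were not called. Of 10 genes of the response to loss of a ribosomal protein, 4 were called on each side, beside the same 22.0% and 27.0% of all genes. Their median was -0.20, and after the fit 3 were called on each side. Xrp1, the transcription factor induced in Minute cells, stood at 0.57 (SE 0.18, adjusted p = 0.00417) and the detoxification gene GstE6 at 1.24 (SE 0.19) in the authors' deposited table. On the other side of that deposited table were crc, the fly ATF4, at -0.87 (SE 0.10) and eIF2alpha at -0.59 (SE 0.09). The deposited table also had calls for upd3 at -1.28 (SE 0.43) and PPP1R15 at -0.22 (SE 0.08). Dif at 0.49 (SE 0.15) and PEK at 0.30 (SE 0.13) were called on the positive side there. Irbp18 at -0.18 (SE 0.19) and Ilp8 at -1.82 (adjusted p = 0.119) were not called in the deposited table. The means of upd3 and Ilp8 were low, at 12.5 and 10.9.

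**Figure D5:**
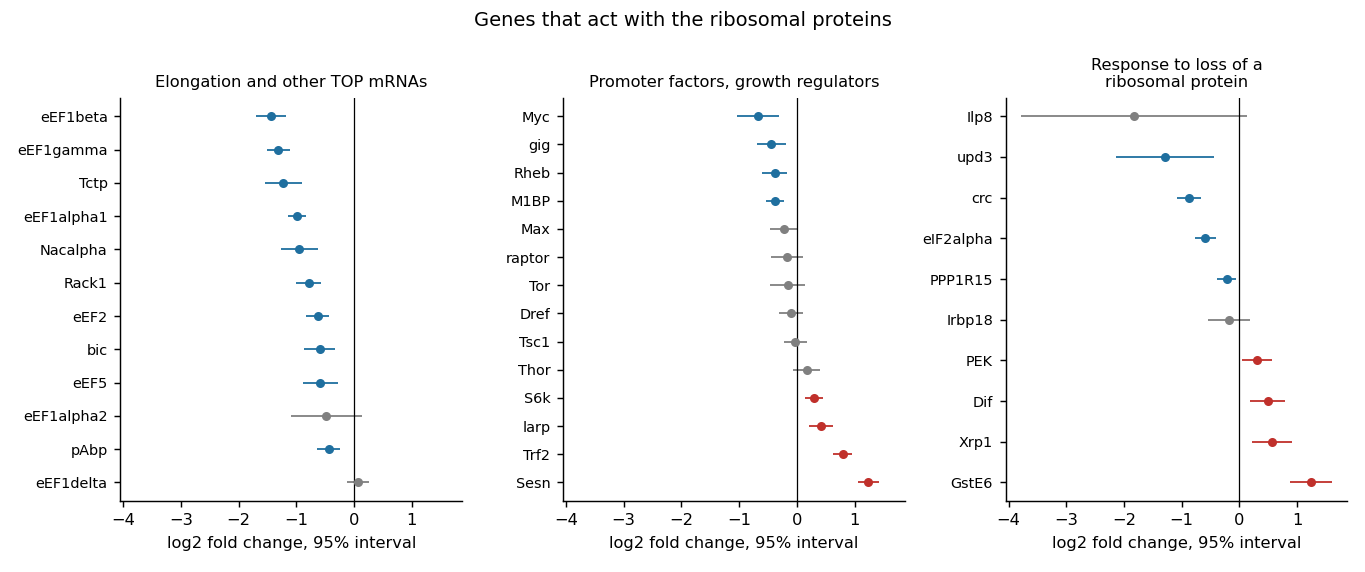
Log2 fold change with 95% interval in the authors' deposited table for genes of translation elongation and other TOP messages (left), promoter factors and growth regulators (middle) and the response to loss of a ribosomal protein (right). Blue genes were called on the negative side, red on the positive side and grey were not called; the left list lies almost wholly below 0 and the other 2 on both sides.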

How the data were processed

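Fat body RNA of 24 libraries in 4 groups was measured, with groups as labelled. The submitters' processing notes name DESeq2, Bowtie2, Picard, SAMtools, FastQC, cutadapt, Trim Galore and build dm6, without roles. Which counter, strand setting, annotation and versions served, not given in the sources used here, stays unknown. The authors deposited 1 table with a mean normalised count (signal unit), a log2 fold change and its log2 standard error, a test statistic (score) and p-values, per the file headers. A check showed that the statistic is the fold change over its SE, and adjusted p-values are Benjamini-Hochberg over 11399 genes.

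Calls used the authors' adjusted p under 0.05. Intervals at 95%, paralogue differences, medians and counts were computed in Python 3.11.15 with scipy 1.17.1. Splines of log2 length and log2 mean (5 degrees of freedom each) used patsy 1.0.2. They were tested on simulated data with a known trend in length and none in mean. Calls after the fit were not simulated. Lengths are medians over transcripts of Ensembl release 115, with dm6 coordinates; 13201 of 13234 symbols and all 89 members matched.

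Named genes were every member of a paralogue family, the extremes of fold change and mean, uncalled members and members with set roles. Of the paralogue families, 1 is counted in the totals but not reported here. The members and lists were chosen with earlier results of these data known. Values per library were not used here, so no fit of the samples could be made.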

Additional observations from a re-analysis of the deposited data

How the results depend on the processing

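The count of 84 negative calls was the same with an adjusted p under 0.01, with adjustment over every gene with a p-value, with a mean of at least 10 and with fold changes centred on genes with a mean of at least 100. It was 11 when at least a 2-fold difference was required (table-wide 5.93%), 45 after the fit on length and mean and 53 after that fit made without the ribosomal protein genes. The positive count of 1 was 0 with a mean of at least 10. The median of -0.78 became -0.34 and -0.39 after the 2 fits, and was -0.79 under each other alternative run. After the fit 7 genes with a negative call stood above 0, with SEs from 0.08 to 0.18, and none of them was called. They were RpL22 (0.0925), RpS26 (0.0867), RpL15 (0.0753), RpS3A (0.0720), RpL21 (0.0675), RpS2 (0.0178) and RpLP2 (0.0099). Without members in the fit 3 of these stood above 0, also without a call, RpL22 (0.0243), RpS26 (0.0040) and RpL15 (0.0036). A further 32 and 28 genes lost their call. Why fold change goes with length was not tested. The subunit difference stayed between -0.0064 and 0.09 and that of main copies and paralogues between -0.03 and 0.11, with no test of either. Of the 3 pairs with an interval clear of 0, 1 was left where both means were at least 10 and 2 with summed SEs. The length and mean fit for the counts, the fit without members and the filter on pairs were chosen after seeing the data. No paired analysis was possible because the table holds the authors' comparison and no value per library, and replicates could not be left out for the same reason. The motif and protein comparisons of the design were not run, since no sequence was used here. Depth per library is unknown, and members with a mean under 10 are the least certain.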
